A study of Mus musculus with 4 samples.

Results

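The Wnt feedback inhibitor gene loci examined here are genomic windows around Axin2, Nkd1, Dkk1 and Notum, and the data are the Flag-Sp5 binding peaks that fall in them. A peak was counted for a locus when its midpoint lay inside a fixed mm9 window: 132 kb for Axin2 and 115 kb for Notum on chromosome 11, 175 kb for Nkd1 on chromosome 8 and 105 kb for Dkk1 on chromosome 19. This rule used positions only and gave 8 of the 9428 peaks in the list, which is 0.0849%. All 8 are described below. Each of the 4 windows held at least 1 peak, where 54.6 to 67.8% of windows of the same widths on their chromosomes held none. The genes and windows were chosen with earlier results of these data known, so this contrast is a description and was not tested.

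The peaks came from chromatin immunoprecipitation sequencing (ChIP-seq) of A2Lox.cre mouse embryonic stem cells, a line made for doxycycline-controlled expression of a chosen cDNA. The cells had been in embryoid body culture, floating aggregates in which differentiation begins, for 3 days, and doxycycline had induced Flag-Sp5 over the last 24 h. One group of 2 libraries was immunoprecipitated with the M2 antibody against the Flag tag, and the other group of 2 was input chromatin without antibody. All 4 libraries carried the same cell line, day and doxycycline label, so neither cells without doxycycline nor a Flag precipitation without Flag-Sp5 was analysed here. The tagged, induced protein was measured, not the cells' own Sp5. The authors' list is shared by the whole series and gives for each peak a chromosome, a start and an end. It holds no height, score, read count or value per library, so the depth is unknown, no value below has a replicate error, and no test between groups was possible. Peaks enter such a list by passing a threshold, and where none is listed Flag-Sp5 may still have bound below it.

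Wnt ligands stabilise β-catenin, which acts with TCF/LEF factors on target genes, and several of those targets encode proteins that dampen the pathway again. Axin2 is a scaffold of the complex that marks β-catenin for destruction, and Nkd1 (naked cuticle homolog) binds Dishevelled inside the cell. Dkk1 is secreted and blocks the LRP co-receptors, and Notum is a secreted enzyme that removes the lipid from Wnt proteins. Sp5 is a zinc-finger factor of the SP/KLF family, itself encoded by a Wnt target gene, and factors of this family bind GC-rich and CACCC-type sequence. The question behind the study, from its title and design, was where Sp5 sits on the genome of differentiating stem cells.

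The promoters of the member genes are shown first, because factors of both the SP/KLF and TCF/LEF families are known to act at such sequence. They are RefSeq sequences of build GRCm38.p6, found by symbol for 3 of the 4 genes, namely Axin2, Nkd1 and Dkk1. Each run is the 250 bases before the gene start, 5′ to 3′ on the gene's strand. Capitals mark matches on either strand to GGGCGG (the GC box), to CACCC (the CACCC box), to CTTTGA or else CTTTGT (cores of the TCF/LEF site), to TATAAA (the TATA box) and to CCAAT (the CCAAT box). Matches of different motifs did not overlap. These GRCm38.p6 positions cannot be set against the mm9 peak positions, and whether a peak covers any of these promoters was not analysed here.
Axin2 promoter, GRCm38.p6 chr11:108920099-108920348, plus strand: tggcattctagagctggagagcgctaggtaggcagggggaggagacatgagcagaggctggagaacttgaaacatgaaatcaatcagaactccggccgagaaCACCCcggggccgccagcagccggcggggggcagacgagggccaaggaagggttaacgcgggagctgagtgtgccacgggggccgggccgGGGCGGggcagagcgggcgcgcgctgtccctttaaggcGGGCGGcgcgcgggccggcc
Nkd1 promoter, GRCm38.p6 chr8:88527383-88527632, plus strand: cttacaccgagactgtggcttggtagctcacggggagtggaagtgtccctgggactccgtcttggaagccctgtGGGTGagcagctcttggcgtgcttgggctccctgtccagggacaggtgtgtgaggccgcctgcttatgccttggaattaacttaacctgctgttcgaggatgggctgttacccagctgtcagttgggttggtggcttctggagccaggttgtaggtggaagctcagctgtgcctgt
Dkk1 promoter, GRCm38.p6 chr19:30549497-30549746, minus strand: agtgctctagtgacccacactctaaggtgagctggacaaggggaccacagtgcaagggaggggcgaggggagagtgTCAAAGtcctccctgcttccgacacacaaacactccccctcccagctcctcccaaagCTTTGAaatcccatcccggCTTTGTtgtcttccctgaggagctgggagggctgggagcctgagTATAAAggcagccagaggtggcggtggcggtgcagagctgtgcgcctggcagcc

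Axin2 and Nkd1 shared the CACCC box, while the GC box was found in Axin2 alone of the 3 promoters and the TCF/LEF cores and TATA box in Dkk1 alone. Axin2 had 2 GC boxes, with their first printed letters 58 and 20 bases before the gene start, and 1 CACCC box 148 bases before it. Over all 32851 promoter windows of the table, cut to the same length, 32.7% held a GC box and 52.0% a CACCC box. The Axin2 window was GC-rich, at 69.2% G or C and 24 CpG pairs, where the median promoter of the table had 52.4% and 6. Nkd1 and Dkk1 were also above that median in G or C, with 6 CpG pairs each. Nkd1 had a single match, a CACCC box on the opposite strand 176 bases before the start, at 58.4% G or C. Dkk1, at 60.8% G or C, had neither a GC box nor a CACCC box in these 250 bases. It did have 2 CTTTGA cores, 174 bases (opposite strand) and 117 bases before the start, and 1 CTTTGT core 98 bases before it. Windows with CTTTGA made up 13.8% of the table and windows with CTTTGT 16.5%. Dkk1 also had a TATA box 54 bases before the start, found in 12.4% of the table's windows. No CCAAT box was found in the 3 promoters (33.8% of the table's windows). A match is a run of letters and not a bound site.

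Axin2 held the most peaks of the 4 loci, 3 within 6.22 kb of each other, although with peaks wider than the list's median only it held 2, as many as Dkk1. On mm9 the first lay at chr11:108771046-108771344 and was 299 bp wide, the second at chr11:108772347-108772533 with 187 bp, and the third at chr11:108777311-108777526 with 216 bp. Their midpoints were 24.8, 23.6 and 18.6 kb below the centre of the window, all on its lower-coordinate side. The first and second midpoints were 1.25 kb apart and the third lay another 4.98 kb on. Outside this trio the neighbourhood was empty of peaks for a long way. The next peak below was 485 kb from the trio, at chr11:108286361-108286596, and the next above was 510 kb away, at chr11:109287028-109287458. Of the distances between neighbouring peaks on chromosome 11, 9.09% were as long as the lower of these and 8.36% as long as the upper.

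The single peak of the Nkd1 window lay at chr8:91127962-91128250 and was 289 bp wide. It sat 45.6 kb above the window centre, with 41.9 kb left to the upper edge. Its nearest peaks were both outside the window, 150 kb below it at chr8:90978337-90978572 and 92.8 kb above it at chr8:91220800-91221003. The lower of these missed the window by 16.5 kb and the upper by 50.9 kb. Nkd1 was thus the locus with peaks closest to the outside of its window.

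Dkk1 held 2 peaks that were 50.5 kb apart. The first, at chr19:30573437-30573794, was 358 bp wide, the widest of the 8, and lay only 3.62 kb inside the lower edge of the window. The second, at chr19:30623988-30624211, was 224 bp wide and lay 1.60 kb above the window centre. No further peak followed for 557 kb above the second, and the next below the first was 285 kb away.

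Notum also held 2 peaks, 58.9 kb apart. The first, at chr11:120509635-120509870, was 236 bp wide and lay 7.75 kb below the window centre. The second, at chr11:120568580-120568720, lay 6.35 kb inside the upper edge and was 141 bp wide. That is the narrowest width in the whole list, shared by 677 peaks (7.18%). Beyond the pair, the next peaks were 270 kb below and 195 kb above.

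**Figure D1:**
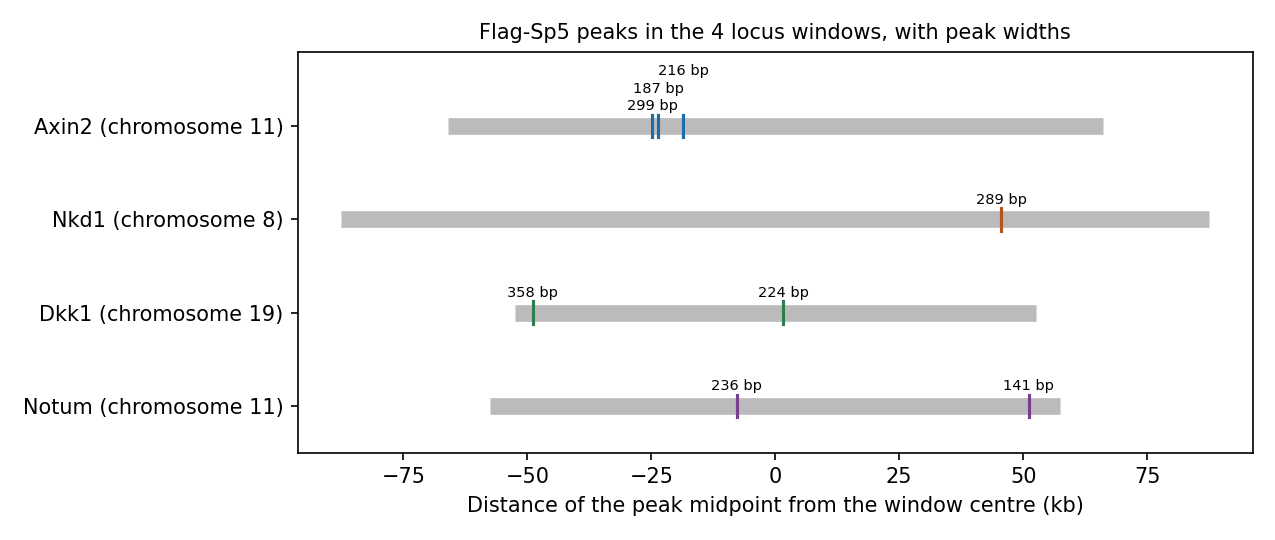
Flag-Sp5 peaks in the 4 windows (grey bars, drawn to scale), placed by the distance of the peak midpoint from the window centre in kb, with the peak width above each tick. Axin2 had 3 peaks within 6.22 kb, Nkd1 1 peak, and Dkk1 and Notum 2 peaks each, 50.5 and 58.9 kb apart.

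Which gene a peak belongs to cannot be read from these positions. How far the windows reach beyond the genes they are named for was not determined, since the gene starts were not placed on mm9 here. In the RefSeq gene table of GRCm38.p6, used only for gene order, the nearest protein-coding neighbours of Axin2 were Cep112 below and Rgs9 above. Those of Nkd1 were Brd7 and Snx20, those of Dkk1 were Mbl2 and Prkg1, and those of Notum were Myadml2 and Aspscr1. On the coordinates of that build 0 of the 4 genes overlapped the window of its name, so the assignment of the windows to the genes rests on mm9 being the build of the list, as the submitters' processing notes state.

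Per length, the 4 windows together were denser in peaks than the list as a whole. They held 15.2 peaks per Mb (8 peaks in 527 kb, exact 95% Poisson interval 6.55 to 29.9), where the list had 3.68 per Mb of the stretches its peaks span on the chromosomes, a ratio of 4.13. Intervals here cover counting error of independent peaks only, and not the choice of the windows, which was made with earlier results known. By locus the density was 22.7 peaks per Mb at Axin2 (interval 4.69 to 66.4) and 19.05 at Dkk1 (interval 2.31 to 68.8). It was 17.4 at Notum (interval 2.11 to 62.8) and 5.71 at Nkd1 (interval 0.145 to 31.8). The order Axin2, Dkk1, Notum, Nkd1 is therefore a description: all 4 intervals overlap, and the difference between loci was not tested. Chromosome densities were 5.76 peaks per Mb on chromosome 11, 4.42 on 19 and 3.82 on 8, which gives ratios of 3.94 for Axin2, 4.31 for Dkk1, 3.02 for Notum and 1.49 for Nkd1. The interval of Axin2 began below the density of its chromosome, as did those of the other 3.

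The stretches around the windows showed another order. Summed over the 500 kb on each side, Nkd1 had 8 peaks (interval 3.45 to 15.8 per Mb), 2 below and 6 above. Notum had 5 (interval 1.62 to 11.7 per Mb), 3 below and 2 above. Axin2 had 3 (interval 0.619 to 8.77 per Mb), 1 below and 2 above, and Dkk1 had 1 (interval 0.0253 to 5.57 per Mb), which lay below. Axin2, with the most peaks inside, thus had fewer around it than Nkd1, with the fewest inside. The intervals of these flank densities overlap as well.

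Windows of the same width gave the background for each count. They were laid end to end to both sides of the locus window along its chromosome, and the share with at least as many peaks was taken. For Axin2, 60 of 896 windows of 132 kb on chromosome 11 held 3 or more peaks (6.7%), and 54.6% held none. For Dkk1, 50 of 546 windows of 105 kb on chromosome 19 held 2 or more (9.16%), and 67.8% held none. For Notum, 160 of 1029 windows of 115 kb on chromosome 11 held 2 or more (15.5%), and 59.1% held none. For Nkd1, 284 of 729 windows of 175 kb on chromosome 8 held at least 1 (39.0%), and 61.0% held none. These shares moved with the window edges. With windows extended by 50 kb at both ends they were 19.1% for Axin2, 21.6% for Dkk1, 31.0% for Notum and 25.5% for Nkd1. The Nkd1 window then held 2 peaks, so its share was for 2 or more. With windows trimmed by 25 kb the shares were 3.05%, 20.04%, 26.8% and 31.0%, in the same order of loci. Dkk1 and Notum then held 1 peak each, so their shares were for at least 1. Windows are not replicates and these shares are not p-values. Most windows lie away from the named genes, and no window was matched on gene content, since no mm9 annotation was used here. When windows were instead centred on every peak of the chromosome, so that each held at least 1, the shares rose to 37.5% for Axin2, 53.1% for Dkk1 and 62.8% for Notum, and to 100% for Nkd1 by construction.

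**Figure D2:**
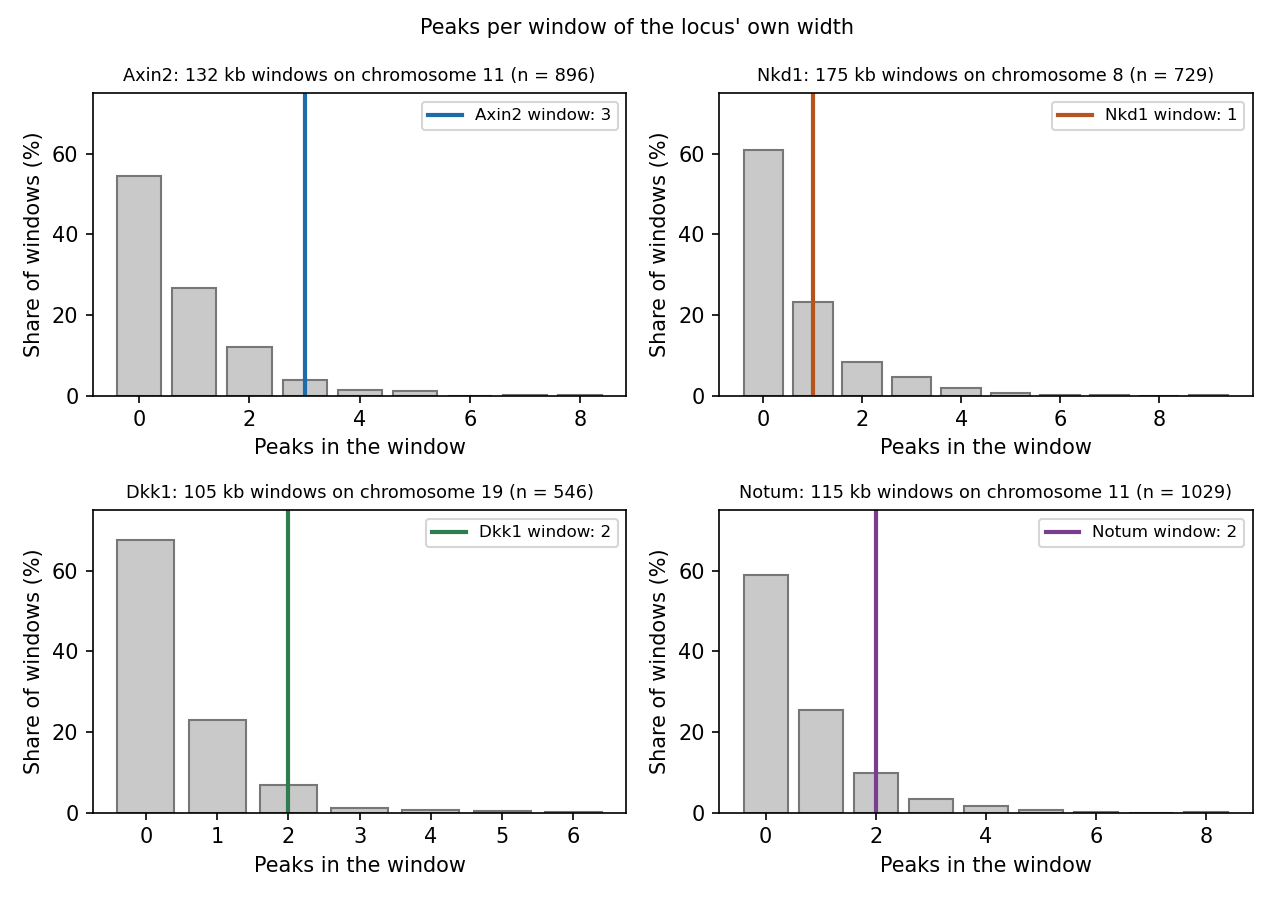
Peaks per window (x axis) against the share of windows in percent (y axis), for windows of each locus' own width laid end to end on its chromosome, with the locus itself left out and drawn as a vertical line. The Axin2 line at 3 peaks stands where 6.7% of windows are as high or higher, and the Nkd1 line at 1 peak where 39.0% are.

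The share depended on the chromosome. Over all 20 chromosomes, windows of the Axin2 width with 3 or more peaks ranged from 0.411% on X to 7.19% on chromosome 5, with a median of 3.73%, and chromosome 11 ranked 3 from the top. For the Notum width and 2 or more peaks the range was 1.43% on X to 15.5% on chromosome 11 itself, with a median of 9.67%. For Dkk1 it was 1.31% on X to 14.2% on chromosome 11, with a median of 8.32%, and its own chromosome 19 was 7 from the top. For Nkd1 it was 14.3% on X to 52.9% on chromosome 11, with a median of 39.0%. Axin2 and Notum therefore lie on a chromosome where windows with such counts are more common than on most others.

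**Figure D3:**
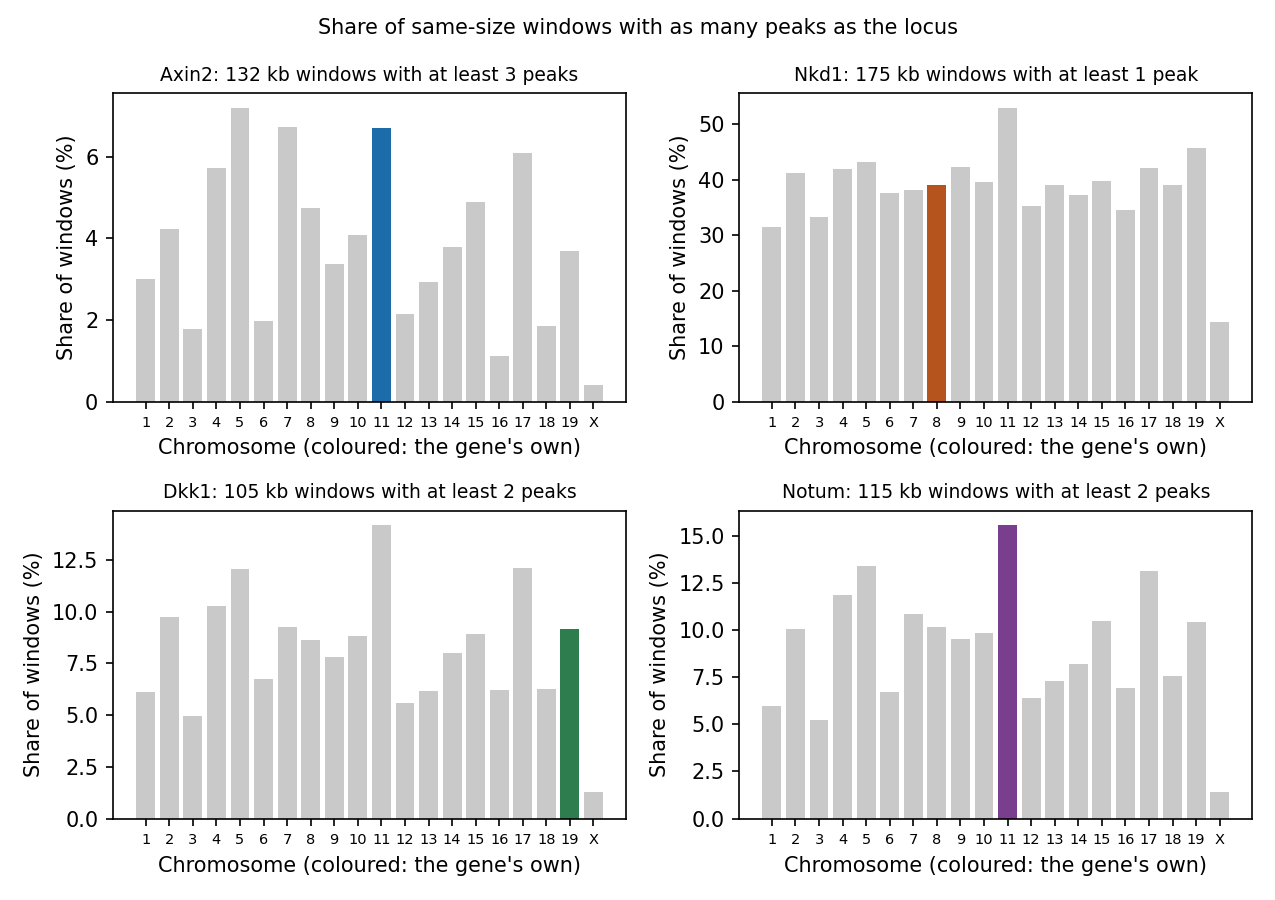
Share of windows, in percent, with at least as many peaks as the locus (y axis, a separate scale in each panel) on each of the 20 chromosomes (x axis), with the gene's own chromosome coloured. X is lowest in all 4 panels, and chromosome 11 is highest for the Nkd1, Dkk1 and Notum widths.

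Spacing set the Axin2 peaks apart from the other 5 in value. The 3 Axin2 peaks were the only members with another midpoint within 10 kb, at 1.25, 1.25 and 4.98 kb. Of all peaks in the list, 8.90% had a neighbour within 1.25 kb, 16.8% within 4.98 kb and 24.0% within 10.1 kb. The other members had their nearest neighbour at 50.5 kb (both Dkk1 peaks), 58.9 kb (both Notum peaks) and 92.8 kb (Nkd1), all above the list's median of 46.9 kb. On their own chromosomes the medians were 46.8 kb on 19, 37.2 kb on 11 and 41.6 kb on 8. Among trios of neighbouring peaks, 12 of 681 on chromosome 11 (1.76%) and 121 of 9388 in the list (1.29%) spanned no more than the Axin2 trio. These trios overlap each other, and this measure was chosen after the Axin2 spacing had been seen. Joining peaks less than 5 kb apart, a setting also chosen then, left 1 interval of 6481 bp at Axin2, and 45.4% of windows held as many.

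Widths of the 8 peaks ran from 141 to 358 bp, with a median of 230 bp against 195 bp in the list, and 6 of 8 were wider than the list's median, where 49.6% of all peaks are. This was not tested, since peaks of 1 list share their libraries. At Dkk1 the 358 bp peak was matched or exceeded in width by 6.93% of the list. The 299 bp peak of Axin2 was matched by 14.3%, the Nkd1 peak by 16.0% and the first Notum peak by 30.3%. The second Axin2 peak, at 187 bp, and the second Notum peak, at 141 bp, were the members below the median. All but the 358 bp peak fell between 100 and 300 bp, the fragment size to which the chromatin was sheared, as did 86.2% of the list, so the members' share was near that of all peaks. Peak intervals covered 702 bp of the Axin2 window (0.532%), 582 bp at Dkk1 (0.554%), 377 bp at Notum (0.328%) and 289 bp at Nkd1 (0.165%). By covered share Dkk1 and Axin2 were thus close, although Axin2 had 1 peak more. An interval's width is not a measure of how strongly Flag-Sp5 bound.

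**Figure D4:**
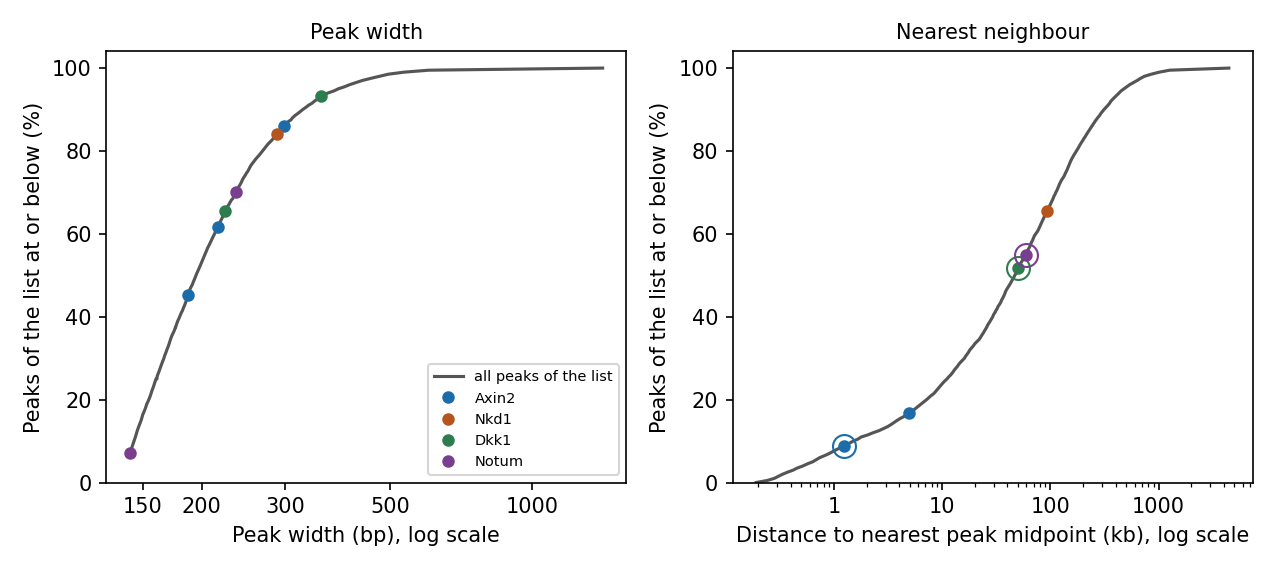
Share of the list's peaks at or below each value, in percent (grey line), for peak width in bp (left) and for distance to the nearest peak midpoint in kb (right), both on log axes. Filled points are members, and an open ring marks a second peak of the locus at the same value: the Axin2 points lie at 1.25 and 4.98 kb, and those of the other loci between 50.5 and 92.8 kb.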

How the data were processed

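The deposited list gives peak start and end in bp and no other value or score, as the authors made it from 2 Flag-Sp5 ChIP and 2 input libraries. The submitters' processing notes name build mm9 and the tools Bowtie, Picard, MACS2 and HOMER, with no role or order. For the peak threshold, any repeat filter and the pooling of libraries, nothing is given in the sources used here. The labels do not say whether libraries came from separate cultures. Coordinates are printed 1-based. Windows were fixed positions on mm9. Background windows lay between the first and last midpoint of a chromosome, on other chromosomes from its first midpoint. Intervals are exact Poisson intervals at 95%. Counting functions were tested on simulated lists. Peaks near 28 other Wnt pathway genes were planned and not analysed, for want of an mm9 annotation. Their promoter motifs were not compared either, since 15 of 28 (53.6%) were in the promoter table, under the 80% set as the least. Each of the 4 member genes and every peak of their windows was named, while other genes inside the windows were not listed. The genes, windows and measures were chosen with earlier results of these data known. Python 3.11.15, numpy 2.4.6, scipy 1.17.1 and matplotlib 3.10.9 were used.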

Additional observations from a re-analysis of the deposited data

How the results depend on the processing

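A count, width or distance was taken as moved when it changed by more than 1.5 times. By this rule the fall from 3 to 2 peaks at Axin2, with peaks wider than the median only, was not counted as moved. A share of windows was taken as moved when it left the 95% Wilson interval of its value. That interval treats windows as independent and narrows as their number grows, so it is a yardstick that differs between loci. Trimming the windows by 25 kb at both ends left 1 peak each at Dkk1 and Notum, and the shares of windows with as many peaks were 3.05% at Axin2, 31.0% at Nkd1, 20.04% at Dkk1 and 26.8% at Notum. Extending them by 50 kb gave 2 peaks at Nkd1, and shares of 19.1% at Axin2, 25.5% at Nkd1, 21.6% at Dkk1 and 31.0% at Notum. With peaks wider than the median only, Axin2 kept 2 peaks, as many as Dkk1, and Notum kept 1 peak, whose nearest neighbour was 270 kb away, the Axin2 distance became 6.22 kb, and shares were 24.0% at Nkd1, 3.66% at Dkk1 and 25.4% at Notum. Windows on all chromosomes gave 3.83% for Axin2 and 8.84% for Notum. Among windows with at least 1 peak the shares were 14.7% for Axin2, 28.4% for Dkk1, 38.0% for Notum and, by construction, 100% for Nkd1. Windows centred on peaks gave 37.5% for Axin2, 53.1% for Dkk1, 62.8% for Notum and 100% for Nkd1. Joining peaks less than 5 kb apart, chosen after seeing the data, left 1 Axin2 interval of 6481 bp, 488 kb from the next peak, with a share of 45.4%. On the gene's own strand alone, Nkd1 had 0 CACCC boxes and Dkk1 1 CTTTGA core. Of 24 values each, 19 peak counts, 23 median widths and 21 distances did not move, nor did 18 of 40 shares. Many of these could not move: where trimming, extending or counting overlap kept the same peaks, their widths and distances were fixed. These tallies are therefore no measure of how robust the values are. Merging peaks less than 500 bp apart, counting any overlap, and windows at every 1 kb moved nothing. No paired analysis was possible because values per library are absent from the list. Leaving out a replicate could not be tried either.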

Other observations

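The Axin2 trio combined close spacing with long peak-free stretches, a measure chosen after its values were seen. Of the 121 trios of neighbouring peaks in the list that span no more than the Axin2 trio, 1 other had at least 485 kb without a peak on both of its sides. The shorter of the stretches beside such a trio had a median of 15.0 kb. Trios overlap where more than 3 peaks lie close together, which shortens the stretch of each.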
